A study of Mus musculus with 24 samples.

Results

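Matrix metalloproteases are zinc-dependent proteases, most of them secreted, and 10 genes of this system are described here in mouse macrophages and Th2 cells. They were Bmp1, Mmp2, Mmp8, Mmp9, Mmp12, Mmp13, Mmp14, Mmp19 and the inhibitors Timp1 and Timp2, found by gene symbol among the 23420 symbols counted. Bmp1 had been noted for its rise on loss of the TET enzymes at 0 h, so the values of that contrast chose it, and they are given below as a description with no test.

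The metalloproteases are made as inactive precursors and cut collagen, gelatin, elastin and other proteins of the extracellular matrix once a propeptide is removed. The tissue inhibitors TIMP1 and TIMP2 bind the active site, and TIMP2 also helps MMP14 to activate MMP2 at the cell surface. BMP1 is not a matrix metalloprotease but an astacin protease: it removes the C-terminal propeptide of procollagen and activates lysyl oxidase. Macrophages are known to secrete MMP9 and MMP12, the latter under the name of macrophage elastase.

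The data were read counts per gene from polyadenylated RNA of 24 libraries in 10 groups, with 4982950 to 26657729 assigned counts each. All mice were C57BL/6 of 8 to 16 weeks. TET iTKO mice carried 3 floxed genes, Tet1, Tet2 and Tet3, and TDG iKO mice carried floxed Tdg, both with CreERT2, a tamoxifen-inducible Cre whose transgene sits in Ndor1. Mice without Cre served as WT controls and were given tamoxifen too. TET proteins oxidise 5-methylcytosine and TDG excises some of the products. Bone marrow-derived macrophages (BMDMs), grown with medium conditioned by the L929 cell line, formed a Tet cohort (WT and TET iTKO) and a Tdg cohort (WT and TDG iKO), each at 0 h and after 6 h of Kdo2-lipid A (KLA, an agonist of Toll-like receptor 4), with 2 libraries in each of these 8 groups. Th2 cells, T helper cells differentiated in culture, were WT and TDG iKO, with 4 libraries each. Libraries 3 and 4 of each Th2 genotype differed by little more than sampling noise and were counted as 1 sample (n = 3). The labels do not say which libraries came from separate animals. Xist, an RNA of female cells, had 0 counts in WT replicate 1 of the Tet cohort at 0 h and at 6 h. It had 22210 at 0 h and 17492 at 6 h in WT replicate 2, so these replicates came from mice of different sex. The p-values measure the spread between the libraries of a group, which may be technical in part.

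The labels of cell type fitted their markers: the 9 macrophage markers counted summed to 22400 to 29300 CPM (counts scaled to the assigned total of the library) in BMDMs and 10.4 to 60.5 in Th2 cells, and the 9 T cell markers to 2970 to 3900 in Th2 cells and 8.34 to 28.7 in BMDMs. The counts did not check the deletions. They were made over whole genes, and Tet2 had 719 to 914 raw counts in TET iTKO and 563 to 927 in WT at 0 h, Tet1 had at most 6 in either at 0 h, and Tdg had at most 3 in any BMDM library. Replicate 2 of WT at 0 h in the Tdg cohort was the shallowest library, where 3 counts made 0.602 CPM.

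RefSeq promoter windows were at hand for 6 of the 10 genes, and the 250 bases before the start are shown for 4 of them because TET proteins act on cytosines of CpG dinucleotides. Each is on the coding strand of build GRCm38.p6, 5′ to 3′, with every CpG in capitals. Mmp13 lies at chr9:7272264-7272513 (+), Mmp8 at chr9:7558179-7558428 (+), Mmp14 at chr14:54431348-54431597 (+) and Timp1 at chrX:20869916-20870165 (+).
Mmp13: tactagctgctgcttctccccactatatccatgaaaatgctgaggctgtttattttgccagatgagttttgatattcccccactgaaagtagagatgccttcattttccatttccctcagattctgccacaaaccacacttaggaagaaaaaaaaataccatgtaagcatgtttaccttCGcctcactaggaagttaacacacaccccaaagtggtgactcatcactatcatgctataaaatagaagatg
Mmp8: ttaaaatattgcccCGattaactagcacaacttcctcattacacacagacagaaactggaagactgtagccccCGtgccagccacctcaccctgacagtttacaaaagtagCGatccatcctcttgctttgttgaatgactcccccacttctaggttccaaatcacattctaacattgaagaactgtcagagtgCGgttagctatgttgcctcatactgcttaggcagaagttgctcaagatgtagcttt
Mmp14: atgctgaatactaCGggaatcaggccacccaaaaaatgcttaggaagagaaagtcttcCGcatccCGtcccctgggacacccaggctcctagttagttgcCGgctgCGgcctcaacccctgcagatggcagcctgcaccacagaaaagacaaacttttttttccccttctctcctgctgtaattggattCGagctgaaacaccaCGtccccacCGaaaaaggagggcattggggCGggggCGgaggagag
Timp1: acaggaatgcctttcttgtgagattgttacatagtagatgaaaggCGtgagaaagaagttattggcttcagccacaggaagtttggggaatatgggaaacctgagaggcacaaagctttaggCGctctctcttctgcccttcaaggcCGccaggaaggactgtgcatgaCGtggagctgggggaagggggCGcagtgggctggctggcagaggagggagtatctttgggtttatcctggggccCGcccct

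The promoters differed in CpG content. The Mmp13 window held 1 CpG and that of Mmp8 held 4, against a median of 6 over 32851 windows, of which 18.8% held no more than Mmp13 and 44.4% no more than Mmp8. Mmp14 held 10, Timp1 held 6, and Timp2 held 21, a number that 85.2% of all windows did not exceed. The 2 windows of Mmp12, the elastase gene, held 0 and 2. An AP-1 motif (TGANTCA, both strands) was present in 6.75% of all windows. It was present once in Mmp13, starting 35 bases before the start, and once in the second Mmp12 window, and in no other window of the 6 genes. The NF-kB consensus had 1 match, in the first Mmp12 window, against 7.25% of all windows with a match. A match is a stretch of letters and no evidence of binding.

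**Figure D1:**
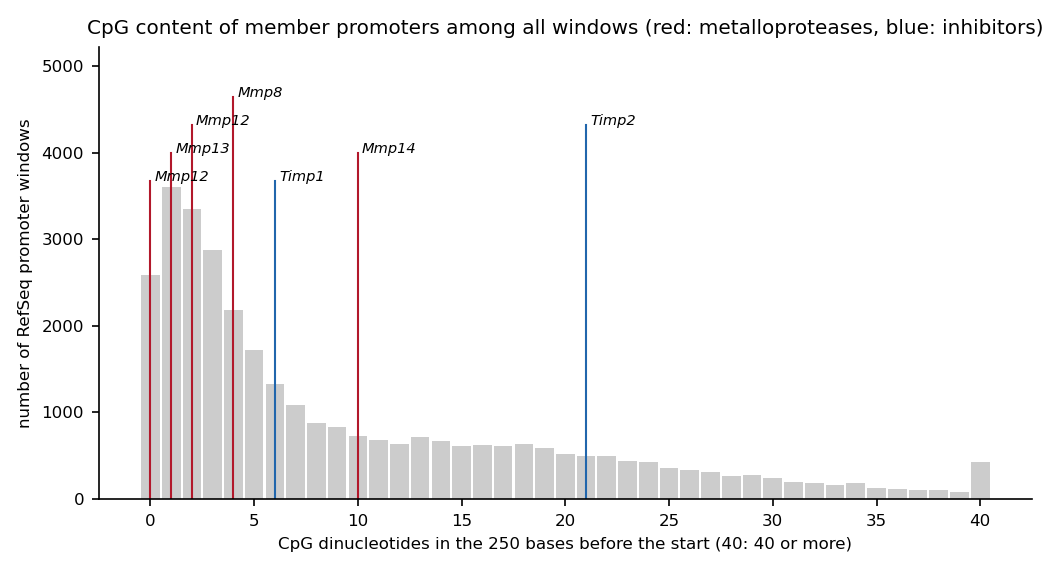
Number of CpG dinucleotides in the 250 bases before the start (horizontal axis) against the number of RefSeq promoter windows with that many (grey bars, vertical axis), with the windows of 6 of the genes as vertical lines. The lines of Mmp12, Mmp13 and Mmp8 stand at 0 to 4 CpG, Timp1 at 6, Mmp14 at 10 and Timp2 at 21. Annotated transcripts cover 203 of the 250 bases of the Timp2 window.

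At 0 h the WT macrophages of the Tet cohort expressed these genes over a wide range of levels. In FPKM, here the CPM divided by the kilobases of exon, the membrane-anchored protease Mmp14 stood highest at 200.0 ± 13.7 (SD, n = 2), followed by Timp2 at 158 ± 2.11. Mmp8, Mmp12, Timp1 and Mmp13 formed a middle group between 36.1 and 48.5 FPKM, with SDs of 7.03 to 11.8, so that neighbours in it did not differ beyond their spread. Mmp9 stood at 12.7 ± 4.39, Mmp19 at 9.68 ± 0.668, Mmp2 at 0.624 ± 0.00544 and Bmp1 last at 0.0368 ± 0.0363. The Tdg cohort had Timp2 (122 ± 37.9) and Mmp14 (105 ± 50.5) on top and Mmp2 (0.172 ± 0.244) and Bmp1 (0 in both libraries) at the bottom. The cohorts share no library, and levels are not compared between them.

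Loss of the TET enzymes at 0 h went with more Bmp1, Mmp9 and Mmp13 and with less Timp1 and Timp2. These values are a description, since Bmp1 was picked from this contrast. Values by library are normalised counts (counts divided by the size factor of the library within its cohort). Bmp1 had 4.23 and 0.764 in WT (4 and 1 raw counts) and 86.1 and 151.0 in TET iTKO (71 and 168 raw counts). The groups were far apart, by 5.74 ± 0.7 on the log2 scale (SE), by 7.29 when WT replicate 1 was left out and by 4.82 when WT replicate 2 was left out. Across all genes 7.56% passed an adjusted p of 0.05 in this contrast.

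Among the gelatinases, Mmp9 had 912.2 and 560.0 in WT and 2826 and 4311 in TET iTKO, a log2 difference of 2.28 ± 0.53, and Mmp2 had 30.7 and 31.3 against 71.6 and 33.3, a difference of 0.74 ± 0.42 that was 0.1 without TET iTKO replicate 1. Of the collagenases, Mmp13 had 1357 and 1807 in WT and 3636 and 5328 in TET iTKO (1.5 ± 0.42), and Mmp8 had 2172 and 1717 against 3090 and 3249 (0.71 ± 0.16). The WT and TET iTKO libraries of Mmp9, Mmp13, Mmp8 and Mmp2 did not overlap, although those of Mmp2 were close. With 2 libraries in a group, values often fail to overlap without a real difference. The share of all genes without overlap was not counted, so here and below this is a description. Mmp12 (-0.36 ± 0.34), Mmp14 (-0.18 ± 0.1) and Mmp19 (0.1 ± 0.19) had differences within 2 SE of 0.

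Both inhibitors were lower. Timp1 had 622.6 and 450.0 in WT and 277.7 and 130.3 in TET iTKO, and the log2 difference was -1.4 ± 0.3. Timp2 had 9914 and 10196 against 5017 and 3331, with a difference of -1.27 ± 0.17. Every TET iTKO library was below every WT library for both genes. Timp1 is X-linked, and WT replicate 1 had 0 counts of Xist at 0 h and at 6 h while all other BMDM libraries of the cohort had 17088 to 22210. Without that library the Timp1 difference at 0 h was -1.15. Over the 10 genes the median log2 difference was 0.41, with 6 genes above 0 and 4 below.

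After 6 h of KLA the same direction was measured in other libraries, although they may come from the same animals as those at 0 h. The 10 genes were chosen with earlier results of these data known, so the choice was not blind to these libraries. By DESeq2, 6 of the 10 genes passed an adjusted p of 0.05 between TET iTKO and WT, against 6.45% of the 11823 genes tested. Of these, 4 proteases rose (Bmp1, Mmp9, Mmp8 and Mmp13) and both inhibitors fell. The median log2 fold change over the 10 was 0.11, and Mmp2, Mmp12, Mmp14 and Mmp19 did not pass.

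Bmp1, the procollagen C-proteinase gene at chr14:70874364-70920067 (- strand, build mm9), had 111.4 and 128.0 normalised counts in WT at 6 h and 684.4 and 999.9 in TET iTKO. Every TET iTKO library was above every WT library. The fold change was 7.05 (log2 2.82 ± 0.28, DESeq2 adjusted p = 1.07e-20, edgeR adjusted p = 0.00124), and the call held in all 9 alternative fits, with an adjusted p of 4.61e-27 to 0.00124.

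Mmp13, which cuts fibrillar collagen, had 1148 and 1854 in WT and 4780 and 7889 in TET iTKO. The groups did not overlap, and the log2 fold change was 2.08 ± 0.42 (DESeq2 adjusted p = 6.09e-05, 1.5e-67 to 0.0302 over the alternatives). Mmp9, a gelatinase, had 2761 and 1211 in WT and 5666 and 7342 in TET iTKO, without overlap but with a wide WT pair (1.71 ± 0.53, DESeq2 adjusted p = 0.024). Mmp8, the neutrophil collagenase, had 1463 and 1030 against 1989 and 1744, a smaller difference of 0.58 ± 0.16 (DESeq2 adjusted p = 0.00921).

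Timp2 had 5209 and 5272 in WT at 6 h and 2578 and 1811 in TET iTKO, and its log2 fold change was -1.26 ± 0.17 (DESeq2 adjusted p = 9.02e-11, 7.49e-15 to 0.0329 over the alternatives). Timp1 had 610.5 and 429.3 in WT and 246.3 and 152.3 in TET iTKO. The Timp1 groups did not overlap, and the log2 fold change was -1.39 ± 0.3 (DESeq2 adjusted p = 0.000274). Timp1 shares its locus on the X chromosome with Syn1 on the other strand, and the strand setting of the counting was not stated, so its counts are uncertain to that extent. Syn1 had 376 to 437 raw counts in WT and 390 to 394 in TET iTKO at 6 h.

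The calls of Mmp9, Mmp8 and Timp1 at 6 h depended on single libraries or settings. Mmp9 was lost in 4 of 9 alternatives: without TET iTKO replicate 1 (1.88, adjusted p = 0.115), without TET iTKO replicate 2 (1.51, 0.389), without WT replicate 2 (1.24, 0.134) and in a DESeq2 fit of only the 4 libraries compared (adjusted p = 0.0808). Mmp8 was lost with edgeR (adjusted p = 0.0796), without TET iTKO replicate 1 (0.48, 0.221) and without WT replicate 2 (0.35, 0.279). Timp1 was lost in 5 of 9: with TMM factors (0.0683), with a filter of 10 counts in 2 libraries (0.0667), without WT replicate 1 (-1.11, 0.56), without WT replicate 2 (-1.62, 0.149) and without TET iTKO replicate 2 (-1.08, 0.549). All of these are DESeq2 adjusted p-values unless edgeR is named, and no direction changed.

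The 4 that did not pass at 6 h had log2 fold changes of 0.45 (Mmp2, 95% interval -0.29 to 1.2), -0.55 (Mmp12, -1.22 to 0.13), -0.24 (Mmp14, -0.44 to -0.04) and -0.34 (Mmp19, -0.72 to 0.05). Mmp14 had 27597 and 28146 in WT and 23439 and 23779 in TET iTKO. Its groups did not overlap, but the difference did not pass after adjustment (DESeq2 adjusted p = 0.187).

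**Figure D2:**
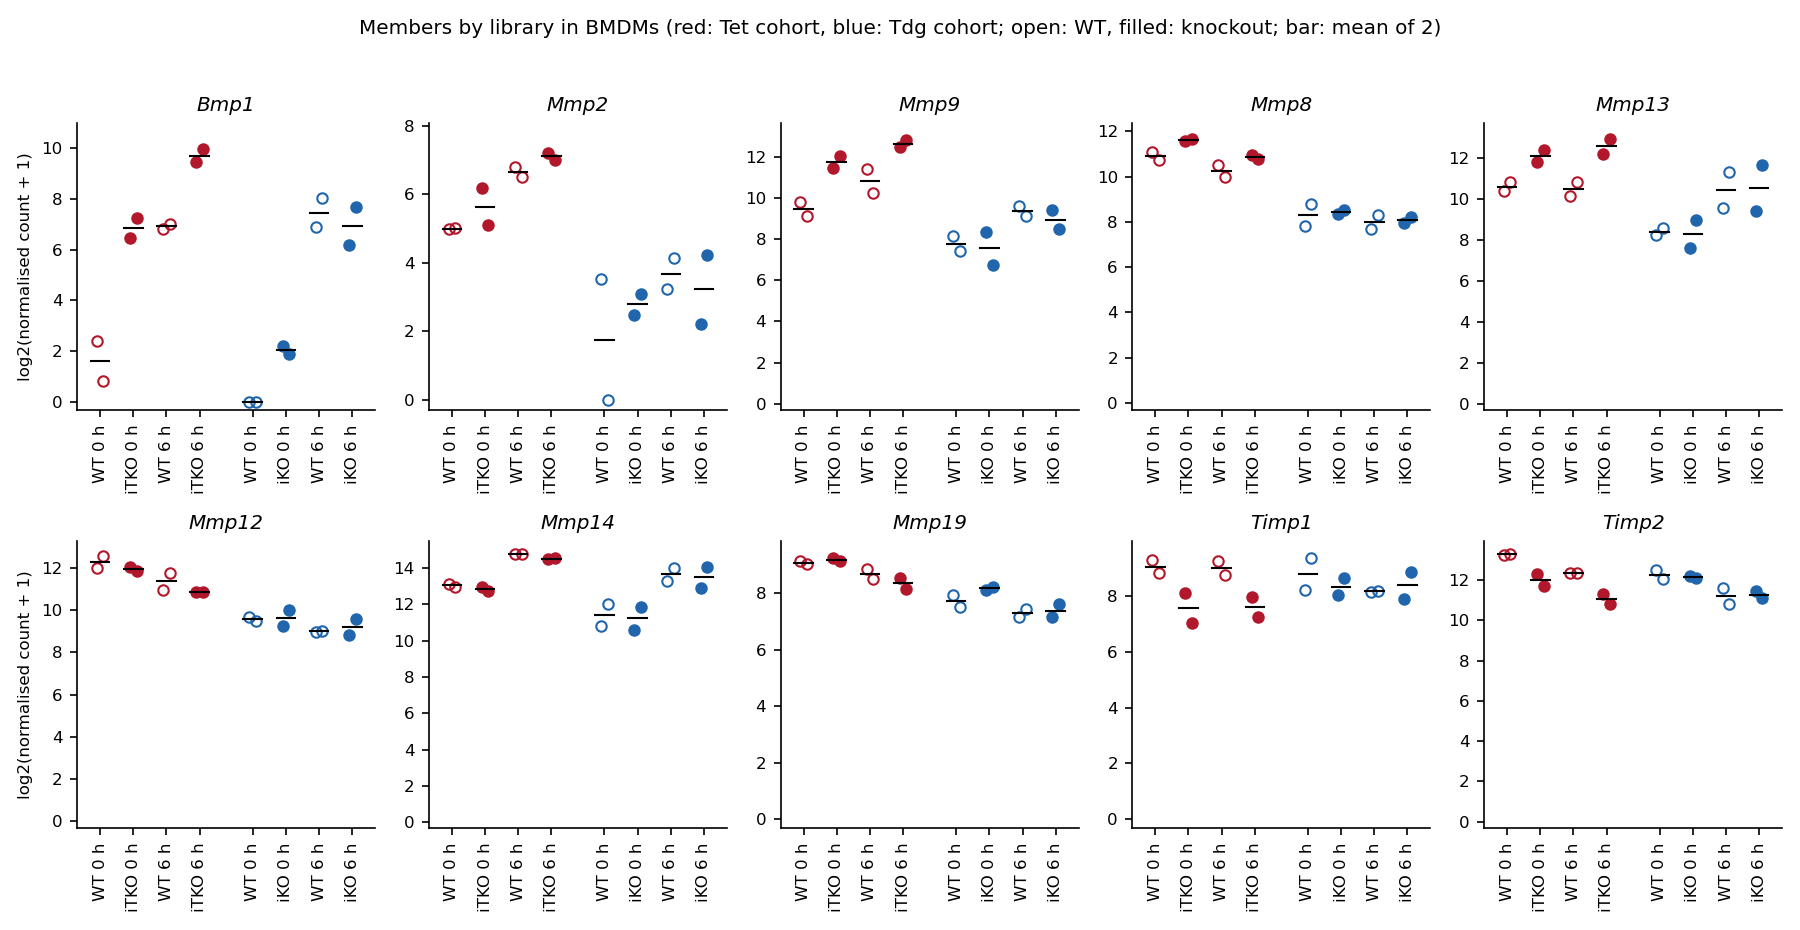
Log2 of the normalised count plus 1 (vertical axis) of each gene in every BMDM library, by genotype and hours of KLA (horizontal axis), with the Tet cohort in red, the Tdg cohort in blue, WT open, knockouts filled and a bar at the mean of 2 libraries. Bmp1 went from at most 4.23 normalised counts in WT at 0 h of the Tet cohort to between 684.4 and 999.9 in TET iTKO at 6 h, while the TET iTKO libraries of Timp1 and Timp2 lie below those of WT at both times.

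**Figure D3:**
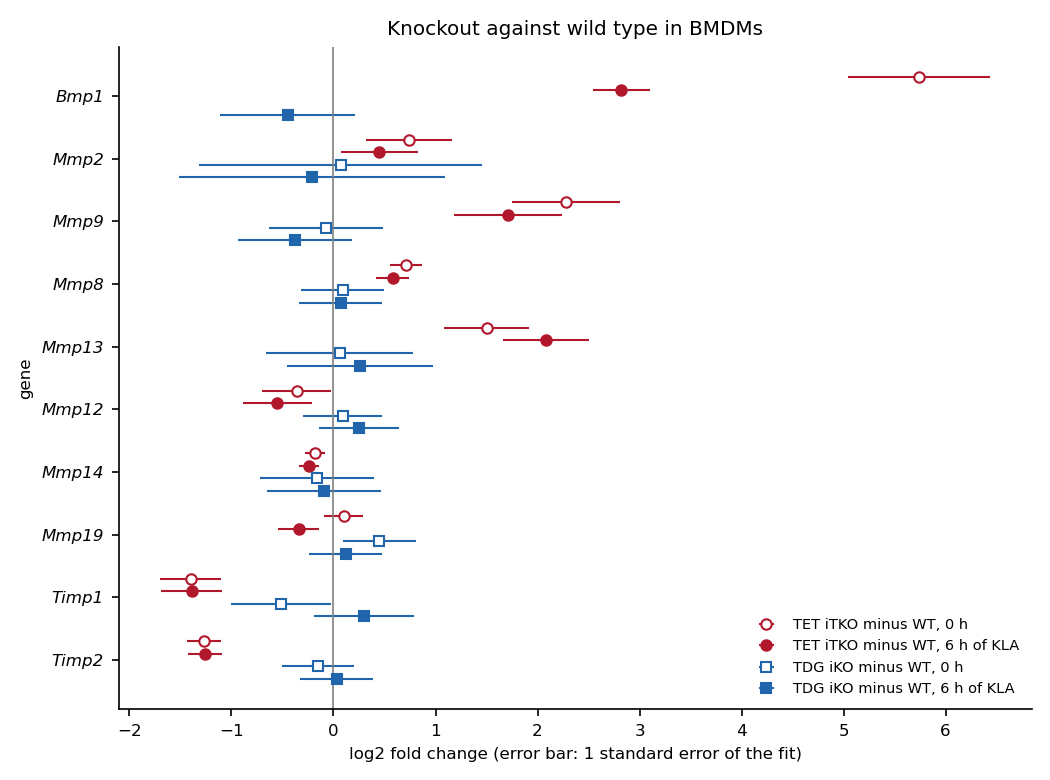
Log2 fold change of each gene in knockout against WT BMDMs (horizontal axis, error bars of 1 SE), for TET iTKO (red circles) and TDG iKO (blue squares) at 0 h (open) and 6 h of KLA (filled). The TET values of Bmp1, Mmp9 and Mmp13 lie to the right (1.5 to 5.74) and those of Timp1 and Timp2 to the left (-1.4 to -1.26), and the TDG value of Bmp1 at 0 h is left out because both WT libraries had 0 counts.

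Among related genes at 6 h, none of the 4 other metalloproteases that could be tested (of 16 counted) passed between TET iTKO and WT. Of the 16, 13 had a mean under 20 normalised counts in every group of the Tet cohort. Mmp27 had a log2 fold change of -0.39 ± 0.18, Mmp25 of 0.7 ± 0.46 and Mmp10 of 0.47 ± 0.63. None of the 7 other astacins and BMP1 enhancers, such as Tll1 and Pcolce, had enough counts to be tested. In the ADAM and ADAMTS family 1 of 13 genes tested fell, Adam19 (-1.43 ± 0.19, DESeq2 adjusted p = 2.73e-11), and none rose. Of all genes, 6.45% passed in either direction.

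Of 7 other protease inhibitors tested (of 10 counted), 3 rose and none fell, where 6.45% of all genes passed in either direction. Among the 3 were Serpinb2 (log2 1.68 ± 0.16, DESeq2 adjusted p = 2.01e-23) and Serpine2 (1.03 ± 0.35, 0.0483). Serpinb2 encodes an inhibitor of plasminogen activators. The median of the list was 0.89. Of 15 cathepsins and genes of the plasminogen system tested, 7 fell and 1 rose (median -0.25). Plau, the urokinase gene, fell by 1.33 on the log2 scale (SE 0.16, DESeq2 adjusted p = 3.77e-14), and Ctsk, the gene of the collagen-cutting cathepsin K, fell by 1.53 (SE 0.26, 5.28e-07). Ctsl (-0.63 ± 0.11) and Ctss (-0.45 ± 0.09) also fell.

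Of 13 matrix genes that BMP1 or the metalloproteases cut, 3 rose and 1 fell, where 6.45% of all genes passed in either direction. Lox, the lysyl oxidase gene, had a mean of 6610 ± 594 normalised counts in WT at 6 h and 10900 ± 852 in TET iTKO (SD, n = 2 each, log2 0.72 ± 0.13, DESeq2 adjusted p = 5.29e-06). Dcn, which encodes decorin, rose by 1.54 ± 0.18 on the log2 scale (DESeq2 adjusted p = 1.46e-14), and Spp1, which encodes osteopontin, fell by 0.8 (SE 0.11, 1.13e-10). Of 7 ligands of the BMP and TGF-beta family tested, Inhba alone passed, with 218 ± 15.8 in WT and 435 ± 144 in TET iTKO (DESeq2 adjusted p = 0.00746).

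Markers of other cell types moved with these groups, and their part in the results was not tested. The 14 neutrophil and granule markers counted summed to 128 to 170 CPM in WT and 295 to 360 in TET iTKO at 0 h, and to 337 to 354 against 548 to 549 at 6 h. At 6 h 5 of the 11 tested rose in TET iTKO, Lcn2 and Ngp among them, and none fell. Retnlg was at 0 in WT at both times. The 11 fibroblast and stromal markers summed to at most 14.6 in WT and 34.5 to 38.9 in TET iTKO at 0 h, and to 20.2 to 22.2 against 66.3 to 79.0 at 6 h. At 0 h most of the stromal counts of TET iTKO were Dcn (385 and 640 raw counts), whereas Col1a1 had 17 and 11, Pdgfra had 0 in both and Cxcl12 had 0 in both. At 6 h 2 of the 5 stromal markers tested rose in TET iTKO and 0 fell (median log2 2.68), where 6.45% of all genes passed. Stromal markers above 3 counts in every library numbered 6 in TET iTKO and 2 in WT at 6 h, and 3 and 4 at 0 h. Of 9 macrophage markers, 5 fell and none rose at 6 h, with Mertk at -1.1 ± 0.19. The 10 dendritic cell markers summed to 1690 to 2450 CPM in WT and 791 to 900 in TET iTKO over both times, and the 8 progenitor markers to 7.79 to 22.6 and 16.5 to 62.9. Of 5 dendritic cell markers tested at 6 h, 2 fell (Cd74 and H2-Aa) and 1 rose (Ccr7, log2 4.31 ± 1.11). Of 7 progenitor markers tested, 2 rose (Cd34, 3.84 ± 1.1, and Myb, 2.04 ± 0.66) and 0 fell. Such markers also varied in the Tdg cohort. At 0 h the neutrophil and granule markers summed to 198 to 773 CPM in TDG iKO and 206 to 292 in WT. The progenitor markers summed to 25.4 to 204 and 11.8 to 68.8. None of these 14 and 8 markers passed between TDG iKO and WT at 0 h, where 0.0% of all genes did. In such bulk samples, fewer cells of a type and less RNA per cell cannot be told apart.

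KLA itself raised Mmp14 and lowered Timp2 in WT macrophages of both cohorts by DESeq2. In the Tet cohort 6 of 9 genes with a test passed, against 23.6% of all genes tested, 3 higher and 3 lower. Mmp14, which activates MMP2 at the membrane, went from 8855 and 8108 to 27597 and 28146 normalised counts (log2 1.72 ± 0.1, DESeq2 adjusted p = 1.94e-58). Mmp2 went from 30.7 and 31.3 to 110.3 and 90.5 (1.7 ± 0.41, DESeq2 adjusted p = 0.000285), and Mmp9 from 912.2 and 560.0 to 2761 and 1211 (1.43 ± 0.53, 0.0313). All libraries at 6 h were above all at 0 h for these 3 genes.

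Mmp8 (-0.64 ± 0.16, DESeq2 adjusted p = 0.000651), Mmp12 (-0.91 ± 0.34, 0.0374) and Timp2 (-0.94 ± 0.17, 4.64e-07) fell in WT of the Tet cohort, Timp2 from 9914 and 10196 to 5209 and 5272. Mmp13 (-0.08 ± 0.42), Timp1 (-0.04 ± 0.3) and Mmp19 (-0.39 ± 0.19) did not pass. The call of Mmp9 was lost without WT 6 h replicate 1 (0.72, adjusted p = 0.365) and without WT 0 h replicate 2 (1.12, 0.309), that of Mmp8 without WT 0 h replicate 1 (-0.46, 0.116) and without WT 6 h replicate 2 (-0.41, 0.0746), that of Mmp12 without WT 0 h replicate 2 (-0.59, 0.07), and that of Timp2 without WT 6 h replicate 1 (-0.93, 0.0707) or replicate 2 (-0.95, 0.0731), all by DESeq2. Mmp9 and Mmp12 were also lost in the fit of only the 4 libraries compared (adjusted p = 0.109 and 0.203), and Mmp9 with the replicate number as a block (1.41, 0.059).

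Bmp1 went from 4.23 and 0.764 to 111.4 and 128.0 in WT of the Tet cohort, a log2 difference of 5.74 ± 0.7, and from 86.1 and 151.0 to 684.4 and 999.9 in TET iTKO, a difference of 2.82 ± 0.28. The 0 h libraries in these contrasts chose the gene, so neither has a test. The mean of TET iTKO at 0 h was 119 ± 45.9 and that of WT after 6 h of KLA 120 ± 11.8 normalised counts (SD, n = 2).

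In TET iTKO macrophages KLA raised Mmp14 and Mmp2 and lowered 4 other genes. Of the 9 with a test 6 passed, against 24.7% of all genes. Mmp14 rose by 1.65 ± 0.1 (DESeq2 adjusted p = 5.42e-54) and Mmp2 by 1.41 ± 0.39 (0.00226) on the log2 scale, and Mmp8 (-0.76 ± 0.16), Mmp12 (-1.09 ± 0.34), Mmp19 (-0.83 ± 0.19) and Timp2 (-0.93 ± 0.17) fell. The difference between the responses of the genotypes passed in none of these 9 genes by DESeq2, nor by edgeR (DESeq2 called 0.429% of all genes, and 544 had an unadjusted p under 0.05). The intervals of that difference ran from -0.35 to 0.23 for Mmp14, from -0.46 to 0.49 for Timp2 and from -0.59 to 1.74 for Mmp13. The call of Mmp2 was lost without TET iTKO 6 h replicate 1 (1.29, adjusted p = 0.0767) or 0 h replicate 2 (0.94, 0.158), that of Mmp12 without any 1 of the 4 TET iTKO libraries (-1.17 to -1.0, 0.0783 to 0.154), and that of Timp2 in the fit of only the 4 libraries compared (0.0865), all by DESeq2.

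Bmp1 rose with KLA in both genotypes of the Tdg cohort. It had 0 counts in both WT libraries at 0 h and 116.3 and 256.5 normalised counts at 6 h, which is at least 92.5-fold higher, taking 3 counts over the 0 h group as the floor (DESeq2 adjusted p = 2.31e-07, edgeR adjusted p = 0.0139). In TDG iKO it went from 3.67 and 2.69 (4 and 5 raw counts) to 70.5 and 202.5, a log2 fold change of 5.46 ± 0.82 (DESeq2 adjusted p = 3.06e-09). Both calls held in every alternative.

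In WT of the Tdg cohort 4 of the 10 genes passed by DESeq2, against 8.73% of all genes, and in TDG iKO 3 passed, against 6.95%. Mmp14 went from 1782 and 4176 to 9927 and 16762 in WT (2.16 ± 0.56, DESeq2 adjusted p = 0.00276) and from 1559 and 3778 to 7809 and 17195 in TDG iKO (2.23 ± 0.56, 0.00216). Mmp13 went from 300.9 and 377.4 to 746.5 and 2593 in WT (2.3 ± 0.72, DESeq2 adjusted p = 0.0207) and from 196.3 and 509.1 to 679.1 and 3307 in TDG iKO (2.5 ± 0.72, 0.0107). Replicate 2 was the higher of each pair at 6 h. Mmp13 did not pass in the Tet cohort, and the difference between the cohorts was not tested. Timp2 fell in WT (-1.03 ± 0.35, DESeq2 adjusted p = 0.0445) and had -0.85 ± 0.35 in TDG iKO, which did not pass (0.168).

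With edgeR only Bmp1 of these 10 passed in the Tdg cohort (Mmp13 0.213 and 0.229, Mmp14 0.114 and 0.13, in WT and TDG iKO, adjusted p). Without WT 6 h replicate 2 the DESeq2 calls of Mmp13 (1.14, adjusted p = 0.858), Mmp14 (1.74, 0.232) and Timp2 (-0.68, 0.695) were lost, and without TDG iKO 6 h replicate 2 those of Mmp13 (0.95, 0.98) and Mmp14 (1.55, 0.226). Without WT 0 h replicate 1 those of Mmp13 (2.14, 0.106), Mmp14 (1.67, 0.0589) and Timp2 (-0.79, 0.178) were lost, without WT 0 h replicate 2 that of Mmp13 (2.48, 0.12), and without TDG iKO 0 h replicate 1 those of Mmp13 (1.97, 0.27) and Mmp14 (1.73, 0.127). Timp2 was also lost with TMM factors (0.0512) and in the fit of only the 4 libraries compared (0.102).

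**Figure D4:**
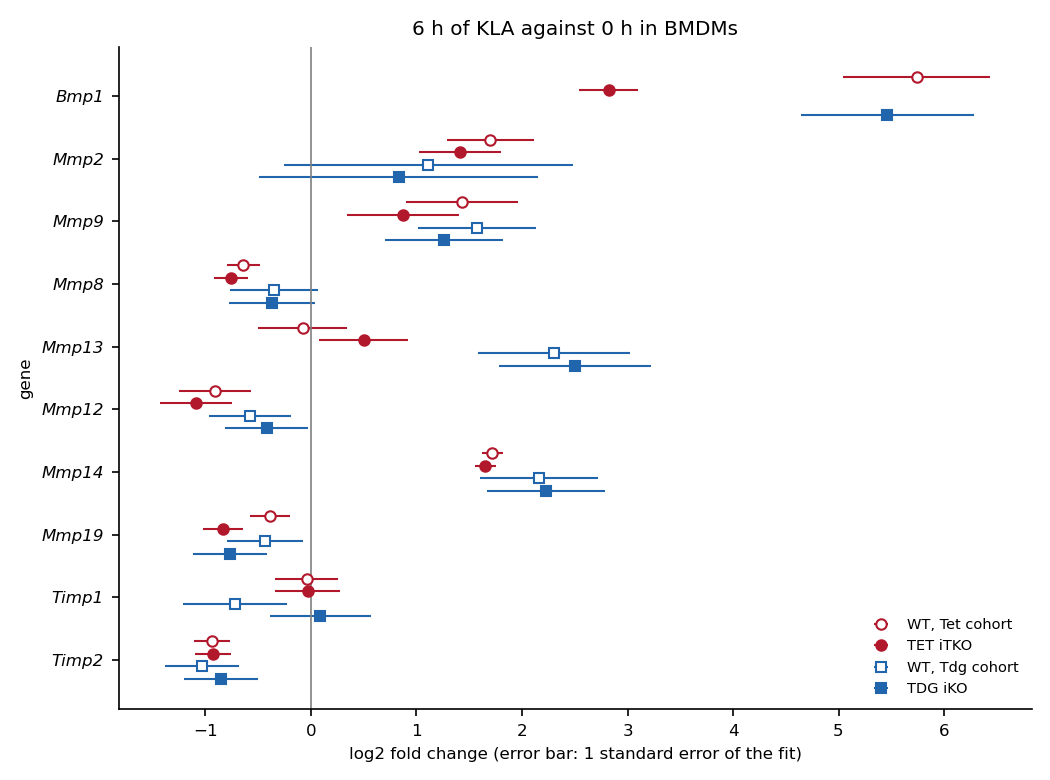
Log2 fold change of each gene after 6 h of KLA against 0 h (horizontal axis, error bars of 1 SE) in WT (open) and knockout (filled) BMDMs of the Tet cohort (red circles) and the Tdg cohort (blue squares). Mmp14 lies between 1.65 and 2.23 and Timp2 between -1.03 and -0.85 in the 4 genotype groups, and the value of Bmp1 in WT of the Tdg cohort is left out because both libraries at 0 h had 0 counts.

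Around these genes KLA moved other members of the system in both WT cohorts. Lox rose from 390 ± 56.1 to 6610 ± 594 normalised counts in the Tet cohort (log2 4.09 ± 0.14, DESeq2 adjusted p = 1.46e-183) and from 159 ± 38.5 to 4650 ± 2310 in the Tdg cohort (4.88 ± 0.61, 3.01e-13). Serpinb2 rose by 4.61 ± 0.24 and by 5.91 ± 0.86, Adam19 by 4.09 ± 0.22 and by 3.39 ± 0.73, and Inhba by 3.63 ± 0.35 and by 3.56 ± 1.11 on the log2 scale (Tet and Tdg cohorts, SE). Plau fell by 1.84 (SE 0.15) and by 2.76 (SE 0.48). Of the other metalloproteases in the Tet cohort, Mmp25 rose (2.36 ± 0.52, DESeq2 adjusted p = 5.93e-05) while Mmp27 (-1.19 ± 0.17, 9.3e-11) and Mmp10 (-2.83 ± 0.58, 9.77e-06) fell. None of the 5 tested in the Tdg cohort passed. Pdgfrb, a stromal marker, rose in both cohorts (5.18 ± 1.56 and 6.78 ± 1.59). In WT of the Tet cohort 2 of the 7 stromal markers tested rose and 0 fell, with a median log2 fold change of -1.31. In WT of the Tdg cohort 1 of the 2 tested rose and 0 fell (median 3.91). The 11 stromal markers summed to 20.2 to 22.2 CPM in WT of the Tet cohort at 6 h against at most 14.6 at 0 h. In WT of the Tdg cohort they summed to 9.55 to 30.1 CPM at 6 h against 1.9 to 11.8 at 0 h. Stromal markers above 3 counts in every library numbered 4 at 0 h and 2 at 6 h in WT of the Tet cohort. The part of these markers in the results was not tested.

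Loss of TDG gave no call in these genes. Between TDG iKO and WT BMDMs 0 of 10 passed at 0 h and 0 of 10 at 6 h, where DESeq2 and edgeR called 0 genes of all those tested (0.0%) at either time. The 0 at 0 h did not hold with the replicate number as a block, where DESeq2 called 4 genes (0.0266%), none of them among the 10. Nor did it hold with DESeq2 without WT replicate 1 or without WT replicate 2. Each of these fits left a single WT library at 0 h, the shallowest library when replicate 1 was left out. Neither fit can therefore tell an effect of TDG loss from a deviation of the WT library that was left. With DESeq2 265 genes at 0 h and 34 at 6 h had an unadjusted p under 0.05, and with edgeR 125 and 27. For Timp2 the log2 difference was -0.15 (95% interval -0.85 to 0.54) at 0 h and 0.03 (-0.67 to 0.73) at 6 h, and for Mmp13 it was 0.06 (-1.36 to 1.48) and 0.26 (-1.15 to 1.66). Bmp1 at 0 h had 0 raw counts in both WT libraries and 4 and 5 in TDG iKO, too few for a fold. At 6 h it had 116.3 and 256.5 in WT and 70.5 and 202.5 in TDG iKO, which overlap (-0.45, -1.75 to 0.85). No change of the KLA response by TDG loss was called either (0.0% of genes by DESeq2 and by edgeR, with 37 and 24 at an unadjusted p under 0.05). That 0 too did not hold without WT 0 h replicate 1, a fit with the same limit, in which none of the 10 was called.

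The effect of TET loss at 6 h, set against that of TDG loss in a fit of all 16 BMDM libraries, was larger for Bmp1 by 3.27 ± 0.78 on the log2 scale (DESeq2 adjusted p = 0.0434). Bmp1 was the only gene of the 10 to pass with DESeq2, against 0.0888% of all genes. The call was lost in 7 of 12 alternatives: edgeR gave an adjusted p of 0.779, and DESeq2 lost it without WT 6 h replicate 1 (3.18, 0.539) or 2 (3.38, 0.275) or TET iTKO 6 h replicate 1 (3.52, 0.13) or 2 (2.97, 1.0) of the Tet cohort, and without WT 6 h replicate 2 (2.58, 0.95) or TDG iKO 6 h replicate 1 (2.7, 0.0677) of the Tdg cohort. At 0 h none of the 9 genes with a test passed by DESeq2 (0.34% of all genes) or by edgeR (0 genes in all, 599 at an unadjusted p under 0.05 and 723 with DESeq2), with Mmp9 at 2.36 ± 0.75 and Timp2 at -1.11 ± 0.42.

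Over the 16 BMDM libraries, the genes whose pattern was most like that of Bmp1 included Robo2 (r = 0.954), Vcan (0.953), Vcam1 (0.952) and Tmem176b (0.942), by Pearson's r of log2(normalised count + 1) among 10353 other genes. Vcan encodes the matrix proteoglycan versican. The libraries share genotypes and times, so the r is a description. Of the other 9 genes described here, Mmp14 (0.786), Mmp13 (0.767) and Mmp9 (0.744) were most like Bmp1, and Timp2 was the most opposed (-0.903).

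Th2 cells expressed Timp2, Mmp9 and Bmp1 at low levels and hardly any of the others. In WT Th2 cells Timp2 stood at 7.33 ± 2.04 FPKM (SD, n = 3), Mmp9 at 0.778 ± 0.331, Bmp1 at 0.747 ± 0.483, Timp1 at 0.275 ± 0.0178, Mmp19 at 0.104 ± 0.0281 and Mmp14 at 0.103 ± 0.0458. Mmp9 and Bmp1 did not differ beyond their spread, nor did Mmp19 and Mmp14. Mmp13 had 1 raw count in all WT libraries together, and Mmp2, Mmp8 and Mmp12 had 0. The Bmp1 reads of WT Th2 cells were 58.9, 61.3 and 10.8 normalised counts, so the sample summed from libraries 3 and 4 was lower than the others.

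Against WT BMDMs at 0 h of both cohorts, 9 genes were tested and all 9 were lower in WT Th2 cells. Of all genes, DESeq2 called 54.7% and the median log2 difference was 0.17. Cell type and any batch of the libraries cannot be told apart in this contrast. Timp2 (-4.6 ± 0.27) and Mmp9 (-3.82 ± 0.4) differed least, and Mmp14 had -10.72 ± 0.52. Mmp8 was at least 2030-fold, Mmp12 at least 5170-fold and Mmp2 at least 32.3-fold higher in BMDMs, with 3 counts over the Th2 group as the floor. The call of Mmp2 was lost against the Tdg cohort alone (-5.66, DESeq2 adjusted p = 0.175). Bmp1 stood the other way, at 0.747 FPKM in Th2 cells against 0.0368 and 0 in the BMDM cohorts at 0 h, with no test because its 0 h BMDM level chose it.

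Between TDG iKO and WT Th2 cells none of the 8 genes with counts passed, and DESeq2 and edgeR called 0 genes in all (0.0%, with 77 and 55 genes at an unadjusted p under 0.05). These fits did not use the pairing of the genotypes by replicate number, so the intervals below include the spread between pairs. With the number as a block DESeq2 called 15 genes (0.145%), none of them among the 10. Xist had 16 to 53630 raw counts over the TDG iKO Th2 libraries and 18304 to 104420 over those of WT. At least 1 TDG iKO library thus had almost no Xist while every WT library had it, so the genotypes were not matched for sex throughout. Bmp1 had 28.6, 55.8 and 20.2 normalised counts in TDG iKO, overlapping the WT values (log2 difference -0.31, 95% interval -1.77 to 1.14). Timp2 had 305.4, 277.2 and 465.5 in TDG iKO and 324.8, 355.0 and 506.4 in WT, which overlap (-0.18, -0.8 to 0.44), and Mmp9 had 40.6, 37.2 and 41.0 against 25.2, 34.2 and 54.5 (0.01, -0.85 to 0.87). Mmp14, Mmp19 and Timp1 had 1 to 21 raw counts per sample, and their intervals were wide, from -0.34 to 3.27 for Mmp14 and from -2.15 to 2.05 for Timp1.

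**Figure D5:**
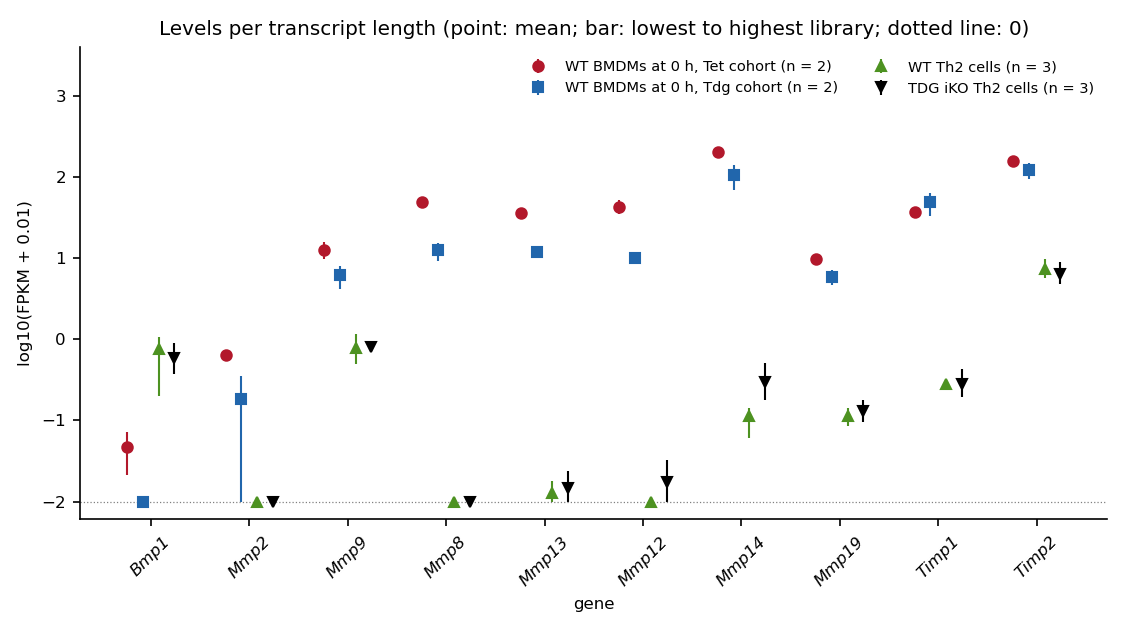
Log10 of FPKM plus 0.01 (vertical axis) of each gene (horizontal axis) in WT BMDMs at 0 h of the Tet cohort (red circles) and the Tdg cohort (blue squares) and in WT (green) and TDG iKO (black) Th2 cells, with the mean as a point and the lowest to highest library as a bar. Of the 10, Bmp1 is the gene that lies higher in Th2 cells (0.747 FPKM in WT) than in WT BMDMs, and Timp2 is the highest of the 10 in Th2 cells at 7.33 FPKM in WT.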

How the data were processed

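The authors prepared directional polyadenylated RNA libraries, aligned 50-base reads to mm9 with HISAT2 and counted reads per gene with HTSeq; the deposited values were raw counts with no normalization, for 23420 symbols and 5 tallies of unassigned reads, which were left out. Between 32.8% and 51.6% of read pairs were unassigned. Annotation, strand setting and tool versions, apart from DESeq2 1.30.0, are not given in the sources used here. Gene coordinates and exon lengths came from GENCODE vM1 on the same build. Counts in BMDM cohorts, all BMDMs, Th2 cells, and WT Th2 cells with WT BMDMs at 0 h were fitted separately with DESeq2 1.42.0. The settings were R 4.3.3, the Wald test and a Benjamini-Hochberg adjusted p under 0.05, with edgeR 4.0.16 as an alternative. Both were first run on simulated counts with the same spread for every gene and no pairs. That run does not show how they behave at the spread of these libraries. FPKM were computed from the counts, exon lengths and assigned totals. The replicate numbers of Th2 cells paired the genotypes (correlation of deviations 0.495 to 0.908 over 3 pairs). The members and gene lists were chosen with earlier results of these data known. Named list genes had the 4 smallest adjusted p-values per list with a mean of at least 20 normalised counts, plus the 5 genes most like Bmp1; a few items that this rule names are not reported here. Alternatives were TMM factors, a filter of 10 counts in 2 libraries, the replicate block, fits of only the groups compared, Th2 libraries unsummed, and each replicate left out.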

Additional observations from a re-analysis of the deposited data

Results flagged for a closer look

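Bmp1 differed between the TET effect and the TDG effect at 6 h of KLA, each against the WT of its own cohort, by 3.27 ± 0.78 on the log2 scale (DESeq2 adjusted p = 0.0434), and by 2.58 to 4.25 over the alternatives. This difference was tested directly, and 7 of 12 alternatives lost the call.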

How the results depend on the processing

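Of the 35 results called in single genes, none changed direction in 354 alternative fits, and 55 of these fits lost the call, 38 of them by leaving out a replicate. Of the 88 results that were tested but not called, 22 of 909 alternative fits made a call and 100 changed sign, 95 of them by leaving out a replicate. The 15 values given with no test kept their sign in all 145. At 6 h, the TET contrast called 3 to 6 of the 10 genes when a replicate was left out (3 without WT replicate 2). For the KLA response the number called ran from 1 to 4 in WT and from 1 to 3 in TDG iKO of the Tdg cohort, and edgeR gave 1 in each in place of 4 and 3. For the TET minus TDG effect it ran from 0 to 2 at 0 h (2 without WT 0 h replicate 1 of the Tdg cohort, 1 without TDG iKO 0 h replicate 1) and from 0 to 2 at 6 h (2 without WT 6 h replicate 1 or TDG iKO 6 h replicate 2 of the Tdg cohort), where edgeR gave 0 in place of 1. The cause was not tested.

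With the replicate number as a block, the KLA response of TDG iKO had 5 genes called in place of 3, the TET minus TDG effect 3 at 0 h (in place of 0) and 5 at 6 h (in place of 1), and the change of the KLA response by TET loss 1 in place of 0 (Mmp13, adjusted p = 0.0426). The KLA response had 5 in place of 6 in WT of the Tet cohort (Mmp9 lost, 0.059), 7 in place of 6 in TET iTKO (Mmp13 gained, 0.000187) and 5 in place of 4 in WT of the Tdg cohort (Mmp9 gained, 2.69e-05). In BMDMs each comparison had only 2 pairs, whose deviations correlated at 0.0432 to 0.0475 between genotypes of the Tet cohort and at 0.343 to 0.793 otherwise. The labels do not tie a number to an animal. In WT of the Tet cohort the numbers matched the sex of the mice between 0 h and 6 h, by Xist. Whether the numbers pair the BMDM libraries is otherwise not known. Over all genes, edgeR called 413 in place of 1006 for KLA in WT and 345 in place of 821 in TDG iKO of the Tdg cohort (1809 and 1377 with the block), and 1 in place of 52 for the change by TET loss (90 with the block). In Th2 cells the block called 15 genes in place of 0 and changed no call among the 10 described here.

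Depth limits the low genes: 3 counts corresponded to 0.113 to 0.602 CPM, and the fitted folds of Bmp1 in WT at 0 h and of Mmp2, Mmp8, Mmp12 and Mmp13 in Th2 cells rest on 0 to 5 counts. Intervals cover the spread between 2 or 3 libraries only.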
